A study of Mus musculus with 2 samples.

Results

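The 10 circadian clock genes described here are Arntl, Per1, Per2, Per3, Ciart, Nr1d1, Nr1d2, Dbp, Tef and Hlf. They were taken by gene symbol from the 22587 symbols of both count matrices, and all 10 were found. The list was chosen by the levels of these genes in the same cells, read earlier by library, by cell class and by mitochondrial share. Their differences between libraries and cell groups are therefore given as descriptions, with counting intervals and no test.

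The study compared YFP+ hippocampal cells of control (CT) mice and of mice that lack the mitochondrial fusion protein OPA1 in Nestin-expressing cells and their progeny (Opa1 cKO). Both genotypes carried Nestin-CreERT2, a tamoxifen-dependent Cre recombinase under the Nestin promoter, and a ROSA26 YFP reporter that Cre switches on, and the Opa1 cKO mice also carried a loxP-flanked Opa1 allele. The mice were of the C57BL/6 strain and both sexes were used. All received tamoxifen at 8 weeks of age, and their cells were collected at 12 weeks. Live YFP+ cells of 3 mice were pooled for each genotype, which gave 1 library of 10x Genomics 3′ single-cell RNA per genotype. No comparison between CT and Opa1 cKO therefore has a replicate. The hour of day at which each library was collected is not given in the sources used here, so genotype and collection time cannot be told apart between the libraries. Groups of cells within the Opa1 cKO library share their collection.

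The mammalian clock is a feedback loop of transcription. The activator BMAL1, made by Arntl, pairs with CLOCK and switches on genes that carry E-boxes, among them the repressors of the Per and Cry families and CIART, which in turn act back on the BMAL1-CLOCK pair. In a second loop, the nuclear receptors REV-ERBα and REV-ERBβ, made by Nr1d1 and Nr1d2, repress Arntl, so that Arntl RNA peaks at the opposite time of day from Nr1d1, and DBP, TEF and HLF pass the rhythm on to genes that carry D-boxes. Nearly every cell type of the body holds this clock, astrocytes and vessel cells included, and several of its genes also answer to hormones and stress.

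The elements through which these proteins act were looked for in the RefSeq promoter windows of the genes, each 300 bases long, from 250 before to 50 after the start of transcription (assembly GRCm38.p6). The table held 12 windows of 9 of the 10 genes, and Per2 had no entry. Shown here are windows of some of the genes. Per1 and Nr1d2 differed most between the libraries in the NSC pool-like class, Ciart differed between cells of 1 library, and Dbp, Per3 and Arntl were among those that differed in the vascular classes. Capitals mark the E-box CACGTG, the E-prime box CACGTT, the D-boxes TTATGTAA and TTACGTAA and the element AGGTCA of REV-ERB and ROR receptors, each searched on both strands. No match overlapped another in these windows.
Per1, chr11:69098699-69098998, plus strand: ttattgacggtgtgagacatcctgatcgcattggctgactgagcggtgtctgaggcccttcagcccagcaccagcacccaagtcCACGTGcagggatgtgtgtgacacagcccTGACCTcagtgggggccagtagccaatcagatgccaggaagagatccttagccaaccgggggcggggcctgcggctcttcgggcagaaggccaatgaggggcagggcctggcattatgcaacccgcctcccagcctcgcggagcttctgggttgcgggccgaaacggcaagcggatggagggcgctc
Nr1d2, chr14:18239057-18239356, minus strand: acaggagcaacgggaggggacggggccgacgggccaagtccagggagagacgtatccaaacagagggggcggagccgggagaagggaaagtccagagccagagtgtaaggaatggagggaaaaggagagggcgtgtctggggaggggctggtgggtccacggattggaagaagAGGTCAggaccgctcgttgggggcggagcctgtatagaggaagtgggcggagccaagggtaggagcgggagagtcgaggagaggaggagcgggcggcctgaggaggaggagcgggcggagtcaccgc
Ciart, chr3:95882179-95882478, minus strand: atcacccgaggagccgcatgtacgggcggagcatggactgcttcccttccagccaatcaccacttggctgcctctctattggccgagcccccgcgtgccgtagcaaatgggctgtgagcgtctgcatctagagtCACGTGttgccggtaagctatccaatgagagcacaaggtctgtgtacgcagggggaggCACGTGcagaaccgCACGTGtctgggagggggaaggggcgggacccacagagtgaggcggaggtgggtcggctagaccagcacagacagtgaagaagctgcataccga
Per3, chr4:151044616-151044915, minus strand: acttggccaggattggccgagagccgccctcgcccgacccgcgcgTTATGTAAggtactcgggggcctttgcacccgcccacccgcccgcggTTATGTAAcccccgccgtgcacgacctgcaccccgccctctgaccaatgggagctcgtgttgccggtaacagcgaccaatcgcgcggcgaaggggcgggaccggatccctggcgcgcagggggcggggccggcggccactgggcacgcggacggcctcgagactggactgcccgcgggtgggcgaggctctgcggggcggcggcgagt
Dbp, chr7:45704997-45705296, plus strand: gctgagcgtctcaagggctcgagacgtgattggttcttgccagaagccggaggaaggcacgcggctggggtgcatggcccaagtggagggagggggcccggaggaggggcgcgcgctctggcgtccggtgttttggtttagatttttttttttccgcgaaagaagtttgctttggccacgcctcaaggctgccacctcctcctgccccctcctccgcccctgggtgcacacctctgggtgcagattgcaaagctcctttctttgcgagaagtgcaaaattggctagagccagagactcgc
Arntl, chr7:113207261-113207560, plus strand: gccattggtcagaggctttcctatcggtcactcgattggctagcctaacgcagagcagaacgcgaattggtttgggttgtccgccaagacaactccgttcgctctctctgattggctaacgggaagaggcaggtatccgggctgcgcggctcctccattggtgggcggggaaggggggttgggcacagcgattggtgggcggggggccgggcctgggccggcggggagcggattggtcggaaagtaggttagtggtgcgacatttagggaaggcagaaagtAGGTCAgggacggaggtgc

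The Ciart window held 3 E-boxes, at 116, 58 and 44 bases before the start. Per1 held 1 E-box and 1 AGGTCA element in its upstream window and no match in its other window, chr11:69099902-69100201. Both Tef windows held 1 E-box, and the Nr1d1 window, chr11:98775328-98775627, held 1 E-prime box. Per3 held 2 D-boxes, Nr1d2 held 1 AGGTCA element, and Arntl held 1 in the window shown and none in its other, overlapping window. The windows of Dbp and Hlf held none of the letters searched. Of all 32851 windows in the table, 7.15% held CACGTG, 4.68% held CACGTT, 1.06% held a D-box and 16.3% held AGGTCA. A match in a window is a run of letters and was not tested as a binding site.

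The genes themselves lie, in the GENCODE M21 annotation of mm10, at chr7:113207465-113314126 (Arntl), chr11:69095217-69109960 (Per1), chr1:91415982-91459324 (Per2), chr4:151003652-151044665 (Per3), chr3:95878503-95882251 (Ciart), chr11:98767932-98775333 (Nr1d1), chr14:18204054-18239127 (Nr1d2), chr7:45705088-45710203 (Dbp), chr15:81802421-81826863 (Tef) and chr11:90336536-90390895 (Hlf). All 10 are annotated as protein coding.

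In all, 4634 barcodes carried 10799936 unique molecular identifiers (UMIs, counts of captured RNA molecules) in the library of CT cells, and 6475 barcodes carried 18662032 in that of Opa1 cKO cells. The filters of the study and at least 1 YFP UMI left 1790 CT cells with a median of 2555 UMIs and 3764 Opa1 cKO cells with a median of 3008. The libraries shared 36 barcodes, 9 of them among the cells kept. Clustering gave a class called NSC pool-like from a marker list of neural stem cells (1379 CT and 2577 Opa1 cKO cells), progenitor and neuron-like cells (139 and 169), ependymal-like cells (39 and 244), mural-like cells (94 and 167), oligodendrocyte-like cells (74 and 101) and 2 clusters called by number. Cluster 2 (10 and 417 cells) was led by Frzb, Fabp7 and Hopx and held too few CT cells for a comparison. Cluster 7 (55 and 89 cells) held all 7 endothelial markers, Cldn5, Ly6c1 and Itm2a among its leading genes, but was led by hemoglobin genes. The mural-like class was led by Tagln, Dcn, Tpm2, Aspn and Pcolce. All 8 mural markers were past 2-fold in it, and 6 stood among its 50 leading genes. Whether it also held other cells of the vessel wall was not tested. The NSC pool-like cells fell into 2 clusters that the libraries filled unequally. The first held 1375 CT and 792 Opa1 cKO cells and was led by Slc7a10, Scrg1, Cldn10, Lcat and Cxcl14, of which Slc7a10 and Cldn10 are known from astrocytes. Of the 12 markers of the list, many of which astrocytes express too, 6 were past 2-fold in it and 2 stood among its 50 leading genes, so stem cells and astrocytes were not told apart in this class. The second, led by the stress genes Gdf15, Slc7a11, Nupr1 and Hmox1, held 4 CT and 1785 Opa1 cKO cells.

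Opa1, the deleted gene, stood at 18.5 CPM (14.4 to 23.4) in CT NSC pool-like cells, from 70 UMIs, and at 8.14 (6.34 to 10.3) in Opa1 cKO, from 69 UMIs, for a log2 ratio of -1.19 (-1.69 to -0.68). The libraries count RNA at its 3′ end, and whether those reads fall in the deleted exons was not tested. All levels are in CPM, the UMIs of a gene summed over the cells of a class, divided by all UMIs of those cells and multiplied by 1000000, with exact 95% Poisson intervals in parentheses. A difference is the log2 ratio of Opa1 cKO over CT with its exact 95% interval. All intervals cover counting error alone and leave out the spread between mice. A gene with at least 20 UMIs in both libraries together is called measured in a class, and a log2 ratio over 1 or under -1 is called past 2-fold.

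Across NSC pool-like cells, 2 of the 10 genes were past 2-fold between the libraries, both of them lower in Opa1 cKO, and 7.71% of the 11312 genes measured there were past 2-fold in either direction. These 2 were the repressor Per1 and the REV-ERBβ gene Nr1d2. Dbp, the output gene with the most UMIs in this class, stood at the same level in both libraries within counting error. The median log2 ratio of the 10 genes was -0.39, beside 0.03 for all genes measured.

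The activator Arntl was close in the libraries, at 44.7 CPM (38.2 to 51.98) in CT and 53.6 (48.8 to 58.7) in Opa1 cKO, with a log2 ratio of 0.26 (0.003 to 0.52). The 3 Per genes code for the repressors whose build-up closes the main loop. Per1 stood at 39.1 CPM (33.1 to 45.99) in CT and 12.3 (10.03 to 14.9) in Opa1 cKO, for a log2 ratio of -1.67 (-2.05 to -1.30). Per3 was also lower in Opa1 cKO, at 287 CPM (269.9 to 304) in CT and 177 (168 to 186) in Opa1 cKO, but its log2 ratio of -0.70 (-0.81 to -0.58) did not pass 2-fold. Per2 rested on few molecules, 54 UMIs in CT and 93 in Opa1 cKO. Its log2 ratio of -0.38 (-0.88 to 0.13) spanned 0 and was 0.45 with cells thinned to 1500 UMIs. The interval of the log2 ratio thus lay below 0 for Per1 and Per3, barely above 0 for Arntl and across 0 for Per2.

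Ciart, which codes for a repressor of BMAL1-CLOCK, was higher in Opa1 cKO. It stood at 15.1 CPM (11.4 to 19.5) in CT and 23.1 (20.005 to 26.6) in Opa1 cKO, for a log2 ratio of 0.62 (0.19 to 1.07). This direction was not shared by all cells of the library: it turned to -0.64 (-1.42 to 0.10) among cells with at least 3% mitochondrial UMIs in both libraries and to -0.26 (-0.71 to 0.18) among cells without a YFP UMI.

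Of the REV-ERB genes, Nr1d2 stood at 84.6 CPM (75.6 to 94.4) in CT and 33.5 (29.7 to 37.6) in Opa1 cKO, for a log2 ratio of -1.34 (-1.57 to -1.10). Its paralog Nr1d1, the more strongly rhythmic of the pair in most tissues, differed less, with 133 CPM (121 to 145) in CT, 100.4 (93.8 to 107) in Opa1 cKO and a log2 ratio of -0.40 (-0.56 to -0.24). The 2 receptors therefore did not differ by the same factor between the libraries, and their intervals were apart.

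The 3 PAR bZip factors carry the clock's timing to its output genes. Dbp gave 1324 UMIs in CT and 3050 in Opa1 cKO, or 350.2 CPM (332 to 369.6) and 359.9 (347 to 373), and its log2 ratio of 0.04 (-0.05 to 0.13) holds any difference in these cells far under 2-fold, as far as counting error goes. Tef stood at 131 CPM (119.9 to 143) in CT and 89.5 (83.2 to 96.1) in Opa1 cKO, for a log2 ratio of -0.55 (-0.72 to -0.39). Hlf stood at 67.2 CPM (59.2 to 75.98) and 51.7 (46.96 to 56.8), for a log2 ratio of -0.38 (-0.60 to -0.15). Tef and Hlf were thus lower in Opa1 cKO without reaching 2-fold, and Dbp was level.

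**Figure D1:**
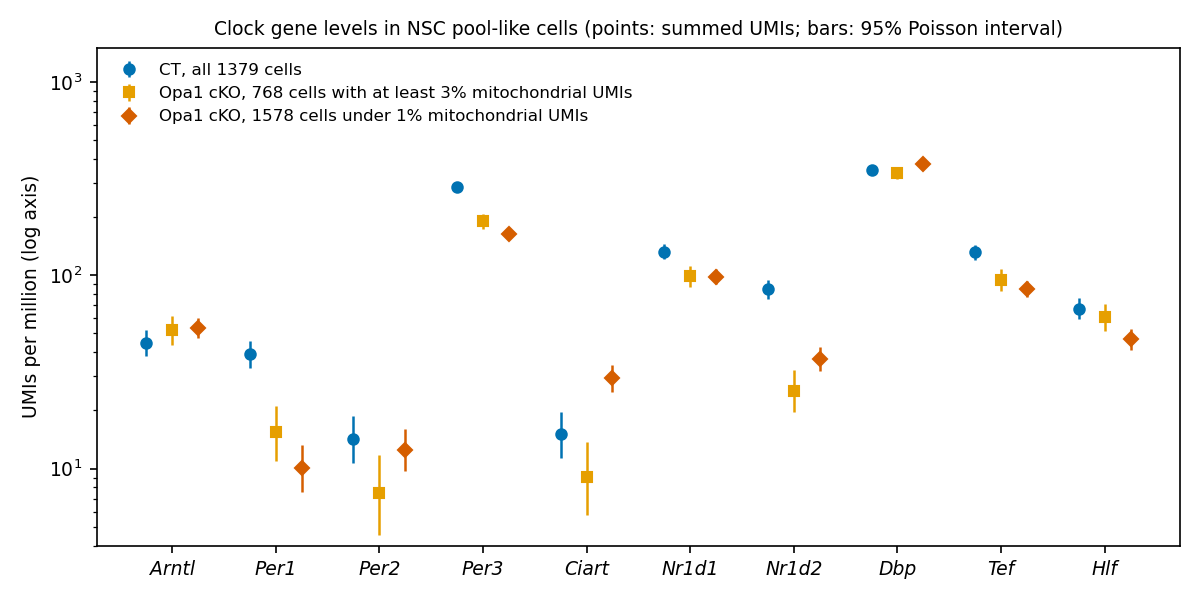
Levels of the 10 clock genes in NSC pool-like cells, in CPM on a log axis, for CT, for Opa1 cKO cells with at least 3% and for Opa1 cKO cells with under 1% of their UMIs from mitochondrially encoded mRNAs. Points are summed UMIs and bars are 95% Poisson intervals. Per1 and Nr1d2 sit lower in both Opa1 cKO groups than in CT, Dbp lies between 336 and 377 CPM in all 3, and Ciart is higher in the cells under 1% than in the other groups.

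All 19 of the other clock genes listed were measured, with a median log2 ratio of -0.14. Cry1, the repressor partner of the Per proteins, was at 23.3 CPM (18.7 to 28.7) in CT and 45.6 (41.1 to 50.3) in Opa1 cKO, for a log2 ratio of 0.97 (0.63 to 1.32). Usp2, a deubiquitinase gene that cycles with the clock, stood at 99.99 CPM (90.2 to 111) and 50.98 (46.3 to 56.02), for a log2 ratio of -0.97 (-1.17 to -0.77). Nfil3, a repressor at D-boxes, gave 2 UMIs in CT and 20 in Opa1 cKO, for a log2 ratio of 2.16 (0.12 to 5.30). It was measured only through Opa1 cKO, the library where it was high. Clock itself, the partner of BMAL1, was level at 0.12 (-0.24 to 0.49), and the intervals of Npas2, Bhlhe40, Rora, Csnk1e, Fbxl21, Btrc, Fbxw11, Arntl2 and Wee1 also spanned 0. Cry2, Bhlhe41 and Rorb were lower by less than 2-fold, at -0.39, -0.29 and -0.28, and the kinase gene Csnk1d stood at 0.32 (0.02 to 0.63).

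Per1 and some other clock genes also answer to glucocorticoids, to acute stimulation and to temperature, and these lists were read beside them. Of the 11312 genes measured in NSC pool-like cells, 3.76% were past 2-fold lower and 3.95% were past 2-fold higher. Of the 9 measured of 11 glucocorticoid-induced genes, 2 were past 2-fold lower, Pdk4 at -1.16 (-1.58 to -0.75) and Hif3a at -1.21 (-1.94 to -0.47), and none was higher. Tsc22d3, the classic glucocorticoid target, stood at 467 CPM (446 to 489) in CT and 299.5 (288 to 311) in Opa1 cKO, for a log2 ratio of -0.64 (-0.73 to -0.55). In this list 4 of 9 were above 0, with Klf9 at 0.16 (0.04 to 0.27) and Nfkbia at 0.18 (0.01 to 0.36). Klf9, Nfkbia and, of the next list, Jun and Junb were named after their values were seen. Of the 9 measured of 10 immediate early genes, 2 were past 2-fold lower, Nr4a1 at -1.86 (-2.62 to -1.12) and Fosb, named after its values were seen, at -1.55 (-2.71 to -0.42), while Dusp1 stood at -0.44 (-0.62 to -0.26). In all, 4 of these 9 were above 0, with Jun at 0.22 (0.08 to 0.37) and Junb at 0.28 (0.05 to 0.51). None of the 7 measured of 8 temperature-responsive genes was past 2-fold, with the chaperone gene Hspa8 at 0.73 (0.67 to 0.79) and the cold-induced Rbm3 at 0.42 (0.27 to 0.57). Hspa1a stood the other way at -0.66 (-1.42 to 0.13), as did Hsph1 at -0.43 (-0.90 to 0.06). Of these 7 genes, 4 were above 0 and 3 below, with a median of 0.01. All 10 genes of the integrated stress response (ISR), the program of the transcription factor ATF4, were past 2-fold higher, with a median log2 ratio of 2.38. The part that any of these responses has in the clock gene differences was not tested.

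The mitochondrial share split the Opa1 cKO NSC pool-like cells within 1 library. Mitochondrially encoded mRNAs made up under 1% of UMIs in 1578 of these cells, from 1% to under 3% in 231 and at least 3% in 768, while 1269 of the 1379 CT cells held at least 3%. Of the 10 clock genes, 1 was past 2-fold between the cells under 1% and those of at least 3%, and 8.33% of the 10669 genes measured were past 2-fold. That gene was Ciart. The median log2 ratio of all genes measured, cells under 1% over cells of at least 3%, was itself 0.24, and that of the 10 clock genes was 0.02.

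Ciart gave 23 UMIs in the cells of at least 3% and 155 in those under 1%, or 9.11 CPM (5.77 to 13.7) and 29.5 (25.03 to 34.5), for a log2 ratio of 1.69 (1.06 to 2.39). The 231 cells between stood at 25.96 (15.4 to 41.03), and CT cells at 15.1 (11.4 to 19.5), so that the level in the cells under 1% stood above both the others of its library at 3% or more and CT. Cry1 was likewise highest in the cells under 1%, with 23.4 CPM (17.8 to 30.1) in the cells of at least 3% and 55.6 (49.4 to 62.3) in those under 1%, for a log2 ratio of 1.25 (0.84 to 1.68), and CT cells stood at 23.3 (18.7 to 28.7). Both genes code for repressors of BMAL1-CLOCK. With the totals rescaled by a trimmed mean of the ratios of all genes measured, the Ciart log2 ratio was 1.46. In cells without a YFP UMI, which the other values leave out, Ciart stood at 10.3 (6.32 to 15.98) and 38.7 (28.5 to 51.5), for a log2 ratio of 1.90 (1.12 to 2.74), and Cry1 at 1.02 (0.47 to 1.58).

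The genes that differed most between the libraries differed less within Opa1 cKO. Nr1d2 stood at 25.3 CPM (19.5 to 32.4) in the cells of at least 3% and 36.9 (31.9 to 42.5) in those under 1%, for a log2 ratio of 0.54 (0.13 to 0.97), both below the 84.6 (75.6 to 94.4) of CT. Per1 stood at 15.4 (10.98 to 21.1) and 10.1 (7.55 to 13.2), for a log2 ratio of -0.62 (-1.24 to 0.02). Dbp was at 0.16 (0.05 to 0.28) and on the other side of 0, at -0.07, with the rescaled totals. The remaining log2 ratios were 0.74 (-0.02 to 1.56) for Per2, 0.04 (-0.27 to 0.35) for Arntl, 0.00 (-0.22 to 0.22) for Nr1d1, -0.16 (-0.39 to 0.07) for Tef, -0.21 (-0.38 to -0.05) for Per3 and -0.38 (-0.68 to -0.08) for Hlf. The rescaled totals put Nr1d2 at 0.31, Per1 at -0.85, Nr1d1 at -0.24, Tef at -0.40, Per3 at -0.45 and Hlf at -0.62. The intervals given are those of the totals before rescaling, and whether they span 0 can change with it. Among cells without a YFP UMI the direction turned for Per1, at 0.26 (-0.52 to 1.02), Per2, at -0.25 (-1.52 to 0.92), Per3, at 0.19 (-0.03 to 0.41), Tef, at 0.12 (-0.22 to 0.45), and Arntl, at -0.22 (-0.72 to 0.27), all with intervals that spanned 0. In those cells Dbp stood at 0.20 (0.03 to 0.38), Nr1d2 at 0.39 (-0.20 to 0.98), Nr1d1 at 0.24 (-0.07 to 0.56) and Hlf at -0.46 (-0.97 to 0.03). All 10 ISR genes were past 2-fold higher in the cells under 1%, beside 6.22% of all genes measured, with Chac1 at 4.17 (3.35 to 5.13) and Mthfd2 at 2.71 (2.26 to 3.20). The part of the ISR genes in the Ciart and Cry1 levels was not tested.

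**Figure D2:**
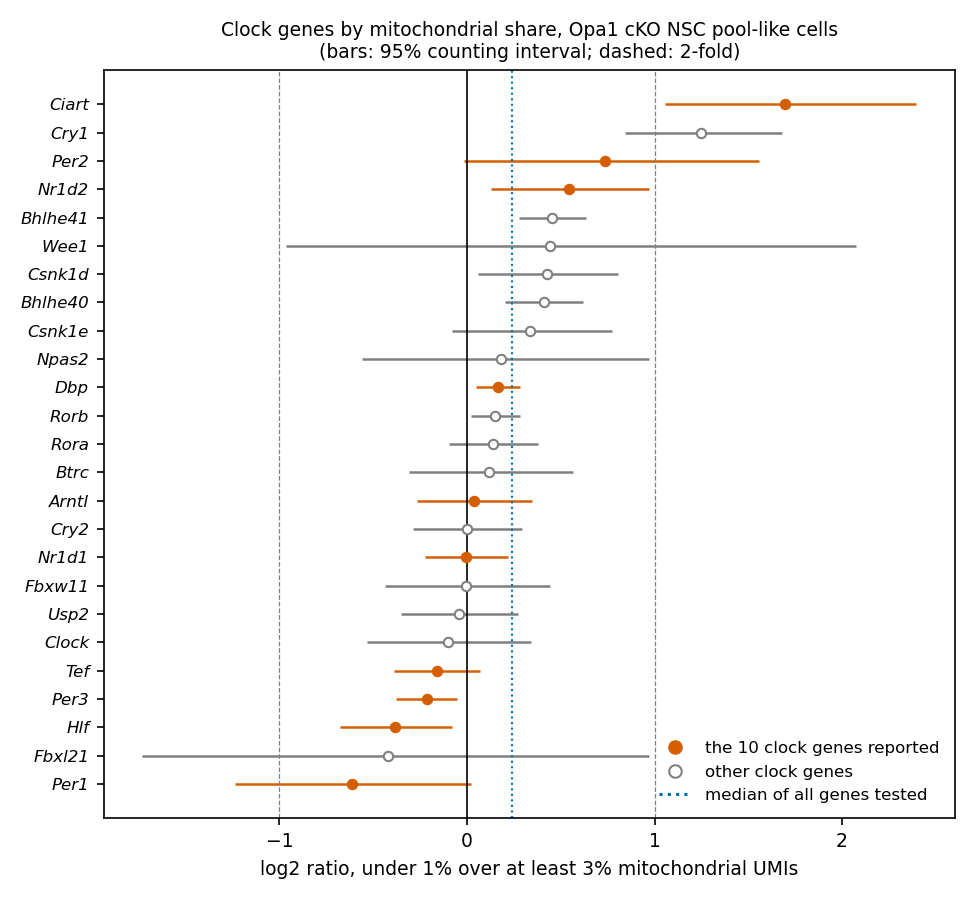
Log2 ratio of the 10 clock genes and of other measured clock genes between Opa1 cKO NSC pool-like cells with under 1% and with at least 3% mitochondrial UMIs, with 95% counting intervals, ordered by size. Filled points are the 10 clock genes and open points the other clock genes. Of the genes drawn, Ciart and Cry1 alone lie past the dashed 2-fold line, to the right of the dotted median of all genes at 0.24.

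Cells of the libraries were also compared at a like mitochondrial share. Between the 768 Opa1 cKO and the 1269 CT cells of at least 3%, 2 of the 10 genes were past 2-fold, against 5.63% of 10387 genes measured, with a median of -0.12 over all of those. These were Nr1d2 at -1.75 (-2.16 to -1.35) and Per1 at -1.30 (-1.85 to -0.77), as in the whole class. Per2 stood at -0.97 (-1.81 to -0.19), Per3 at -0.56 (-0.72 to -0.40) and Dbp at -0.04 (-0.16 to 0.09). Of the 8 ISR genes measured in these cells, 2 were past 2-fold higher in Opa1 cKO, beside 1.02% of all genes measured. Trib3 gave 0 and 23 UMIs, and so was measured only through Opa1 cKO. Mthfd2 stood at 1.35 (0.58 to 2.15), while Slc7a11 and Atf4, named after their values were seen, stood at 0.01 (-0.12 to 0.13) and -0.24 (-0.53 to 0.05). The low levels of Nr1d2 and Per1 were thus present in Opa1 cKO cells whose mitochondrial share was that of most CT cells. Ciart and Cry1 were not higher there, with log2 ratios of -0.64 (-1.42 to 0.10) and -0.03 (-0.53 to 0.47).

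In the vascular classes a larger part of the measured clock genes was past 2-fold between the libraries, most of them lower in Opa1 cKO. The mural-like class was named from markers of pericytes and smooth muscle cells of vessel walls. Of the 7 genes measured in it, 6 were past 2-fold lower in Opa1 cKO, where 6.17% of 4504 genes were, and 1 was past 2-fold higher, where 7.99% were. The 6 were Dbp, Hlf, Per3, Nr1d2, Nr1d1 and Tef, and the 1 was Arntl. Of the 8 measured in cluster 7, 7 were past 2-fold lower (7.64% of 5302 genes) and 1 was higher (4.36%), the same genes with Per1 added to the lower ones. Arntl reached 20 UMIs only through Opa1 cKO, with 2 CT and 18 Opa1 cKO UMIs in mural-like cells and 4 and 27 in cluster 7. Its place among the measured genes thus rests on the library where it was high. The median log2 ratio of the members was -1.78 in mural-like cells and -1.52 in cluster 7, beside 0.05 and -0.04 for all genes measured.

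Dbp was the gene with the most UMIs behind it. In mural-like cells it gave 113 UMIs in CT and 61 in Opa1 cKO, or 692 CPM (570.1 to 832) and 182 (139 to 233), for a log2 ratio of -1.93 (-2.40 to -1.47). In cluster 7 it gave 97 and 39 UMIs, or 417 CPM (338 to 508) and 101 (71.9 to 138), for a log2 ratio of -2.04 (-2.62 to -1.49). In NSC pool-like cells of the same libraries Dbp was level, and the difference of the log2 ratios was -1.97 (-2.43 to -1.51) for mural-like cells less NSC pool-like cells and -2.08 (-2.63 to -1.54) for cluster 7, with normal 95% intervals for counting error. Such intervals also left out 0 for Per3, Nr1d1 and Hlf in mural-like cells and for Nr1d1 and Tef in cluster 7. They spanned 0 for Nr1d2, Tef and Arntl in mural-like cells and for Per1, Per3, Nr1d2 and Hlf in cluster 7. That of Arntl in cluster 7 left out 0 too, but Arntl gave 4 CT UMIs there and was measured only through Opa1 cKO.

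The other PAR bZip genes followed Dbp with fewer UMIs. Hlf stood at 122 (74.8 to 189) in CT and 32.8 (16.4 to 58.6) CPM in Opa1 cKO mural-like cells, for a log2 ratio of -1.90 (-3.11 to -0.77), and at -1.27 (-2.52 to -0.07) in cluster 7. Tef was at -1.32 (-2.45 to -0.21) in mural-like cells and -1.97 (-3.13 to -0.90) in cluster 7, where it stood at 112 (72.9 to 164) in CT and 28.5 (14.2 to 51.002) in Opa1 cKO. All 4 of these intervals lay below 0. Hlf in cluster 7 turned to 0.28 with cells thinned to 1500 UMIs, but only 3 of 54 CT and 6 of 89 Opa1 cKO cells then held a Hlf UMI. These are too few to read a direction from.

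Nr1d1, the REV-ERBα gene, gave 34 and 26 UMIs in mural-like cells, or 208 CPM (144 to 291) in CT and 77.4 (50.6 to 113) in Opa1 cKO, for a log2 ratio of -1.43 (-2.22 to -0.65), and 39 and 22 UMIs in cluster 7, for a log2 ratio of -1.55 (-2.38 to -0.76). Nr1d2 was at -1.78 (-2.94 to -0.67) in mural-like cells and -1.49 (-2.60 to -0.43) in cluster 7. For Nr1d2 these values lay near the -1.34 of NSC pool-like cells, and the intervals of the difference from them, -0.44 (-1.50 to 0.62) and -0.15 (-1.17 to 0.86), spanned 0. Nr1d1 differed from its NSC value by -1.03 (-1.78 to -0.27) and -1.15 (-1.92 to -0.38).

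Of the Per genes, Per3 stood at 165 CPM (109 to 240.5) in CT and 47.6 (27.2 to 77.4) in Opa1 cKO mural-like cells, for a log2 ratio of -1.79 (-2.79 to -0.85), and at -1.08 (-1.95 to -0.22) in cluster 7. Per1 gave 4 UMIs in CT and 1 in Opa1 cKO mural-like cells, too few to be read, and 13 and 7 in cluster 7, for a log2 ratio of -1.62 (-3.19 to -0.19). Per2 and Ciart did not reach 20 UMIs in either class. Per2 gave 2 and 2 UMIs in mural-like cells and 4 and 1 in cluster 7, and Ciart 1 and 2 and then 4 and 4.

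Arntl, the activator, was the gene that stood the other way. It gave 2 UMIs in CT and 18 in Opa1 cKO mural-like cells, or 12.2 CPM (1.48 to 44.2) and 53.6 (31.8 to 84.7), and 4 and 27 in cluster 7, or 17.2 CPM (4.68 to 43.98) and 69.97 (46.1 to 102). The log2 ratios were 2.13 (0.07 to 5.28) and 2.03 (0.51 to 4.002), wide because CT holds so few molecules. In mural-like cells the ratio of Arntl also moved with the choice of cells, to 0.53 (-1.01 to 2.16) in cells without a YFP UMI. Among cells of at least 3% mitochondrial UMIs it rested on 2 and 2 UMIs. Thinning to 1500 UMIs dropped 53 of 94 CT and 66 of 167 Opa1 cKO mural-like cells as too shallow. Of the thinned cells, 0 of 41 CT and 8 of 101 Opa1 cKO held an Arntl UMI. The log2 ratio there, 0.11, is a lower bound, with 3 counts put in place of 0.

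**Figure D3:**
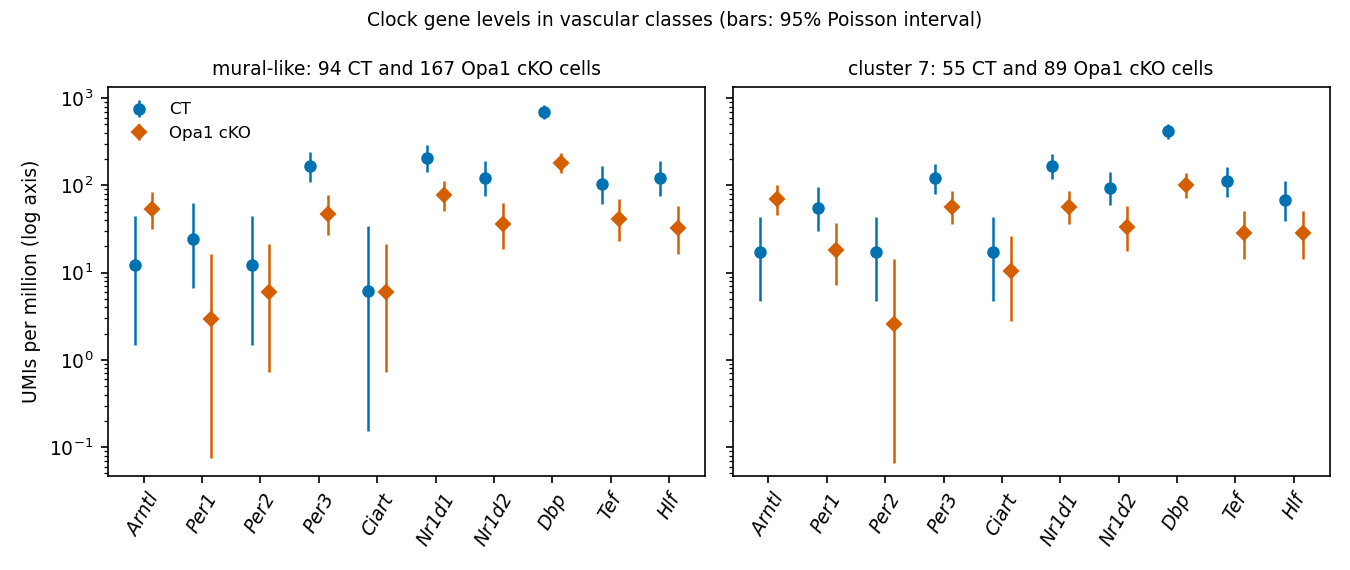
Levels of the 10 clock genes in mural-like cells and in cluster 7, in CPM on a log axis, for CT and Opa1 cKO, with 95% Poisson intervals. Dbp, Nr1d1, Nr1d2, Per3, Tef and Hlf sit lower in Opa1 cKO in both panels and Arntl sits higher.

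By their medians, the other clock genes stood closer to all genes measured than the members did. In mural-like cells 9 of the 19 were measured, with a median of -0.30, beside 0.05 for all genes. Of these 9, 1 was past 2-fold lower, Cry2 at -1.33 (-2.78 to 0.08), beside 6.17% of all genes. In cluster 7, 7 were measured, with a median of 0.06, beside -0.04 for all genes. Of these 7, 2 were past 2-fold lower, beside 7.64% of all genes. They were Bhlhe40 at -1.12 (-1.87 to -0.38) and Csnk1e at -1.03 (-1.71 to -0.35). In both classes the part past 2-fold lower was thus larger than among all genes, but it rests on few genes. None of the other clock genes was past 2-fold higher in either class.

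Cells of these classes that lacked a YFP UMI were set aside by the filter and give a second set of cells from the same libraries. Their class comes from a separate clustering made without the YFP filter. In 174 CT and 143 Opa1 cKO mural-like cells without a YFP UMI, Dbp stood at 582 CPM (491 to 687) and 129 (87.6 to 183), for a log2 ratio of -2.18 (-2.79 to -1.61). In 101 and 157 such cells of cluster 7 it was at 246 (193 to 308) and 69.4 (48.8 to 95.6), for a log2 ratio of -1.82 (-2.43 to -1.24). The other log2 ratios in these cells were -1.03 and -1.05 for Nr1d1, -2.16 and -1.19 for Nr1d2, -1.36 and -1.88 for Per3, -1.61 and -1.67 for Tef and -1.04 and -2.98 for Hlf, mural-like cells first. The interval of Hlf in mural-like cells, -2.23 to 0.05, spanned 0, and those of the rest lay below 0. In cluster 7, Hlf rested on 18 and 4 UMIs. Arntl in cluster 7 was at 1.11 (0.02 to 2.36). Those cells share the library, the mice and the collection of the cells with YFP UMIs, so they add cells and no replicate.

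The vascular classes were also read at a like mitochondrial share, in cells of at least 3%. In 66 CT and 51 Opa1 cKO mural-like cells the log2 ratios were -1.53 (-2.30 to -0.81) for Dbp, -2.37 (-4.77 to -0.61) for Per3, -2.30 (-4.70 to -0.52) for Hlf and -1.36 (-2.71 to -0.16) for Nr1d1, while those of Nr1d2, -1.03 (-2.69 to 0.41), and Tef, -1.59 (-4.07 to 0.33), spanned 0. In 44 and 50 cells of cluster 7 they were -2.47 (-3.41 to -1.64) for Dbp, -2.44 (-4.43 to -0.88) for Tef and -1.82 (-3.0004 to -0.78) for Nr1d1. There Per1, at -1.24 (-3.10 to 0.37), and Arntl, at 1.19 (-0.65 to 3.35), spanned 0, and Per3, Nr1d2 and Hlf both spanned 0 and were no longer past 2-fold, at -0.91 (-2.11 to 0.21), -0.84 (-2.05 to 0.29) and -0.68 (-2.15 to 0.70). Dbp and Nr1d1 were thus past 2-fold lower with intervals below 0 in these cells of both classes, and the other genes were not so in both. Some of those others had too few UMIs to count as measured in these cells. They were Tef in mural-like cells, with 11 CT and 3 Opa1 cKO UMIs, and Per1 (12 and 5) and Arntl (4 and 9) in cluster 7.

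Other values moved with the vascular difference. The share of mitochondrially encoded mRNAs in mural-like cells was 4.35% for CT and 2.51% for Opa1 cKO, and 4.02% and 2.85% in cluster 7. ISR genes were higher there too, 8 of 8 measured past 2-fold in mural-like cells and 6 of 8 in cluster 7, while Opa1 gave 1 and 5 UMIs in mural-like cells and 2 and 5 in cluster 7, too few to show its loss. Of all genes measured, 7.99% were past 2-fold higher in mural-like cells and 4.36% in cluster 7. Those past 2-fold lower made up 6.17% and 7.64%. All 12 NSC pool markers were detected in both classes, with a sum of 13524 CPM in CT and 14814 in Opa1 cKO mural-like cells and 7982 and 9507 in cluster 7. All 7 endothelial markers were detected in the mural-like cells of both libraries, with a sum of 716 in CT and 235 in Opa1 cKO. In cluster 7 all 8 mural markers were detected, and their sum of 16931 in CT and 14545 in Opa1 cKO was above the 13594 and 13189.7 of the endothelial markers. Of 9 immediate early genes measured in mural-like cells, 2 were past 2-fold higher, Junb at 1.23 (0.90 to 1.56) and Ier2 at 1.15 (0.53 to 1.83), both named after their values were seen, and the median was 0.63, while none of 9 was past 2-fold in cluster 7. Cluster 7 held 4 Opa1 cKO cells and 0 CT cells with over 5% globin UMIs, and without them Dbp stood at -1.93 and Arntl at 2.03. Of 5 measured glucocorticoid-induced genes in each class, Tsc22d3 was past 2-fold lower in both, at -1.14 (-1.71 to -0.58) and -1.13 (-1.49 to -0.78), and Sult1a1 in mural-like cells, at -1.04 (-2.32 to 0.24). The median of the 5 was -0.08 in mural-like cells and -0.60 in cluster 7, and 2 of the 5 were above 0 in each class. The part of the mitochondrial share, of the ISR, of acute stimulation, of glucocorticoids and of RNA of other cell types in these levels was not tested.

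The remaining classes held fewer UMIs of the clock genes. In ependymal-like cells, the ciliated cells of the ventricle lining, 1 of 7 genes measured was past 2-fold, against 20.1% of 7060 genes. It was Dbp, at 210.0 CPM (133 to 315) in CT and 99.98 (80.9 to 122) in Opa1 cKO, for a log2 ratio of -1.07 (-1.74 to -0.35), and among cells without a YFP UMI it stood at -0.44 (-1.14 to 0.32). The intervals of the other 6 spanned 0, with Nr1d2 at -0.36 (-1.88 to 1.61). Among cells without a YFP UMI, Nr1d2 gave 12 CT and 22 Opa1 cKO UMIs and stood at -1.65 (-2.73 to -0.50). The mitochondrial share of this class was 6.32% for CT and 1.11% for Opa1 cKO. Of 9 immediate early genes measured, 8 were past 2-fold higher, beside 12.9% of all genes measured. The part of either in the Dbp level was not tested. In progenitor and neuron-like cells 1 of 5 was past 2-fold, against 13.3% of 7070 genes, namely Nr1d2 with 18 and 9 UMIs and a log2 ratio of -1.38 (-2.71 to -0.15). Arntl gave 0 UMIs in CT and 9 in Opa1 cKO there, where a count of 0 allows up to 3. Dbp, with 16 and 20 UMIs, stood at -0.05 (-1.08 to 0.99). In oligodendrocyte-like cells none of the 3 genes measured was past 2-fold, against 11.2% of 4838 genes, and Dbp, with 10 CT and 29 Opa1 cKO UMIs, stood at 0.94 (-0.14 to 2.14). Among cells of that class without a YFP UMI it stood at -1.05 (-2.35 to 0.18), so its direction was not the same in both sets of cells. Nr1d2 gave 8 and 8 UMIs in the cells with YFP UMIs, too few to count as measured. Without a YFP UMI it gave 16 and 5 and stood at -2.05 (-3.86 to -0.54).

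**Figure D4:**
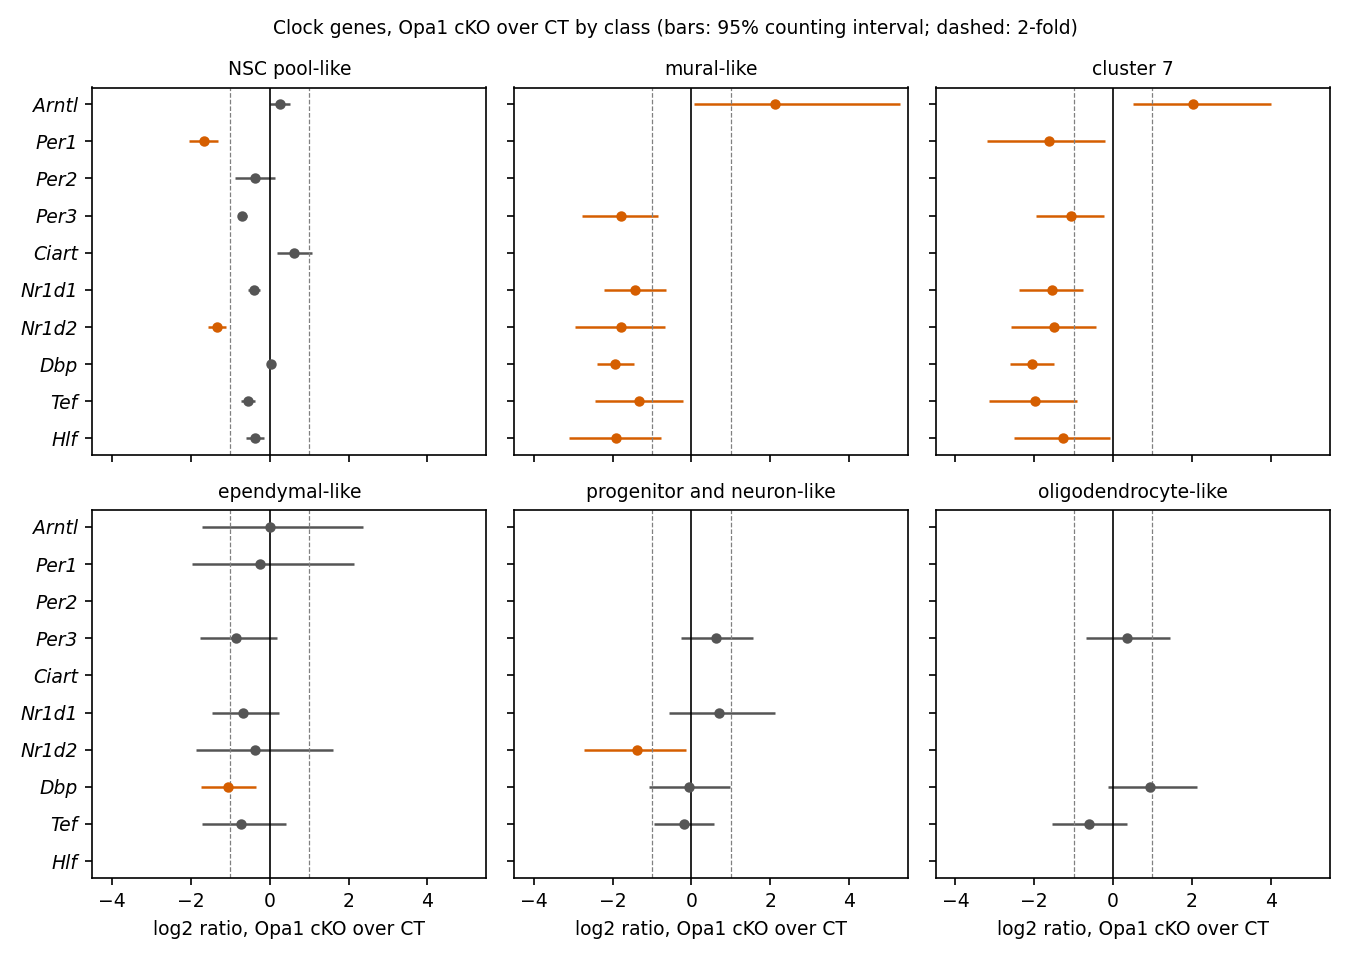
Log2 ratio of Opa1 cKO over CT of each clock gene with at least 20 UMIs in a class, with exact 95% counting intervals and dashed lines at 2-fold. Orange points are past 2-fold. The mural-like class and cluster 7 show Arntl on the right and all other measured genes past 2-fold on the left, while in NSC pool-like cells Per1 and Nr1d2 alone are past it.

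Across classes, the CT level of Dbp was highest in mural-like cells, at 692 (570.1 to 832) CPM, then 417 (338 to 508) in cluster 7, 350.2 (332 to 369.6) in NSC pool-like, 210.0 (133 to 315) in ependymal-like, 35.6 (20.3 to 57.7) in progenitor and neuron-like and 34.7 (16.7 to 63.9) in oligodendrocyte-like cells. The intervals of cluster 7 and NSC pool-like cells overlapped, as did those of the last 2. In Opa1 cKO the order began with NSC pool-like cells, at 359.9 (347 to 373), followed by cluster 2 at 244 (218 to 272), mural-like at 182 (139 to 233), cluster 7 at 101 (71.9 to 138), ependymal-like at 99.98 (80.9 to 122), oligodendrocyte-like at 66.6 (44.6 to 95.6) and progenitor and neuron-like cells at 34.2 (20.9 to 52.9). There the intervals of cluster 2 and mural-like cells overlapped, as did each neighboring pair from cluster 7 down. The class with the most Dbp was thus mural-like in CT and NSC pool-like in Opa1 cKO.

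Shares of cells with at least 1 UMI of a gene were also taken. In NSC pool-like cells a Per1 UMI was found in 9.43% (7.94 to 11.1) of CT and 3.88% (3.17 to 4.70) of Opa1 cKO cells, with exact Clopper-Pearson 95% intervals, and in 5.29% and 1.77% when every cell was thinned to 1500 UMIs. Thinning dropped 94 shallower cells of CT and 198 of Opa1 cKO. A Dbp UMI was found in 38.9% and 41.4% of thinned cells. Within Opa1 cKO, a Ciart UMI was found in 8.68% (7.34 to 10.2) of cells under 1% and 2.60% (1.60 to 3.99) of cells of at least 3%, and in 4.21% and 1.22% after thinning. No class here is known to lack a clock, so no class gives the share that free RNA alone would.

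The pattern of Dbp over classes was compared with that of other genes by Pearson's correlation of log2 levels with 10 added, over the 13 sums by class and library of at least 30 cells and 7148 genes of at least 300 UMIs. The 5 most alike were Farp1 (r = 0.94), Nr1d1 (0.93), Rnaset2b (0.92), Slc2a8 (0.92) and Mmgt2 (0.91). Rnaset2b has a near-identical copy, Rnaset2a, so its counts are uncertain. Of the other clock genes of the 10, Hlf and Per3 ranked 25 and 34, and Nr1d2 ranked 146. Tef ranked 550 (r = 0.59) and Per1 ranked 600 (r = 0.58), while Ciart and Arntl had coefficients of 0.39 and 0.38. The 13 sums share 2 libraries and their depth, so these coefficients are descriptions.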

How the data were processed

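Single-cell RNA of YFP+ hippocampal cells was compared in 2 libraries, each pooled from 3 mice. Per the labels the authors aligned reads to mm10 with Cell Ranger 2.1.1, while the header of the matrices gives software version 3.1.0. The deposited values are counts of UMIs per gene and barcode, without normalization. Cells were kept if they had between 600 and 7500 genes, under 20% mitochondrial UMIs and at least 1 YFP UMI, then clustered with Seurat 5.3.0 and sctransform 0.4.2 in R 4.3.3 (8 dimensions, resolution 0.2). Clusters were named from fixed marker lists by fold over the mean of the other clusters, a form of the rule settled after clusters were seen. Cells without a YFP UMI took their class from a separate clustering made without the YFP filter. The members and gene lists were chosen with earlier results of these data known. UMIs were summed by class and library and scaled to CPM (python 3.11.15, numpy 2.4.6, scipy 1.17.1, pandas 2.3.3). Intervals are exact Poisson, binomial-split and Clopper-Pearson intervals at 95%, and their script was tested on simulated data. With 1 library per genotype no test was made. Genes were named as all 10 members, any other clock gene, and up to 4 of each list by size of log2 ratio in NSC pool-like cells with at least 50 UMIs. Some genes of these lists are not reported here.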

Additional observations from a re-analysis of the deposited data

How the results depend on the processing

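No paired analysis was possible because each genotype is 1 library, and no replicate could be left out. In NSC pool-like cells Per1 kept a log2 ratio between -1.81 and -1.26, Nr1d2 between -1.75 and -1.21 and Dbp between -0.04 and 0.09 over the alternatives. The counts of genes past 2-fold kept within 1.5 times of their value in NSC pool-like cells and in the mitochondrial groups, under every alternative run. Thinning each cell to 1500 UMIs, which leaves few genes with 20 UMIs, gave 1 past 2-fold of 1 measured in mural-like cells, 2 of 2 in cluster 7, 2 of 4 in ependymal-like cells and 0 of 1 in progenitor and neuron-like cells. Thinning dropped 53 of 94 CT and 66 of 167 Opa1 cKO mural-like cells. In cluster 7 it put Hlf at 0.28, the only direction reversed among genes past 2-fold. That value rested on 3 CT and 6 Opa1 cKO cells with a Hlf UMI, and Hlf did not count as measured there. Cells without a YFP UMI, an alternative chosen after seeing the data, gave 0 of 1 in progenitor and neuron-like and 2 of 4 in oligodendrocyte-like cells, and clustering without the YFP filter gave 1 of 6 in oligodendrocyte-like cells. No share of all genes past 2-fold under these alternatives is set beside these counts. They therefore do not show whether the clock genes stood out. Leaving out cells marked by Scrublet was not run, since it marked 11 of 4186 CT and 5 of 6121 Opa1 cKO cells, too few to have worked, so doublets were not removed. Depth limits Per1, Per2 and Ciart in the vascular classes, where most gave under 10 UMIs.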

Other observations

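Cluster 2, led by Frzb, Fabp7 and Hopx, held 10 CT and 417 Opa1 cKO cells, and these entered no comparison between the libraries. In its Opa1 cKO cells Dbp stood at 244 (218 to 272), Per3 at 131 (112 to 152), Nr1d1 at 61.5 (48.8 to 76.4), Arntl at 55.4 (43.4 to 69.7) and Ciart at 15.2 (9.27 to 23.4) CPM, with 95% Poisson intervals. Cells without a YFP UMI took their class from a separate clustering made without the YFP filter. Its cluster 2 held 143 CT and 424 Opa1 cKO cells, so it is not the same set as above. Of its cells, 84 in CT and 145 in Opa1 cKO lacked a YFP UMI. Between these the log2 ratio was -1.49 (-2.95 to -0.14) for Nr1d2, from 14 and 8 UMIs. That of Dbp, -0.35 (-0.91 to 0.23), spanned 0. In progenitor and neuron-like cells the Dbp level was lower than in the NSC pool-like cells of both libraries, at 35.6 (20.3 to 57.7) against 350.2 (332 to 369.6) in CT and 34.2 (20.9 to 52.9) against 359.9 (347 to 373) in Opa1 cKO, while Tef stood at 66.7 (44.98 to 95.2) and 58.2 (40.3 to 81.3) there.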
